A study of Mus musculus with 121 samples.

Results

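The extracellular matrix is the protein scaffold between cells, and 40 of its genes were followed here in the liver and the gonadal adipose tissue of C57BL/6 mice. The genes were the collagens and matrix genes of a named list, taken as the rows of both count tables whose Ensembl identifier carries that symbol. They were 40 of the 25759 genes in each table: 6 fibrillar collagen chains, 8 basement membrane genes, 6 beaded or fibril-associated collagen chains, 8 adhesive and matricellular genes, 4 proteoglycans, 5 elastic fibre and microfibril genes and 3 crosslinking enzymes. The rule itself uses no measured value, but the list was drawn up with earlier results of these data known.

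RNA was sequenced from mice labelled PEP WT, HET or KO, where PEP is the submitters' name for the altered gene. All were C57BL/6 mice that received standard chow (10% of calories from lipid), a Control diet, an Alios diet or HFD 45 percent from the age of 8 weeks and for 18 weeks. Livers numbered 5 WT, 8 HET and 5 KO with chow, 8 WT, 11 HET and 9 KO with HFD, 5 WT, 4 HET and 1 KO with Control, and 6 WT, 5 HET and 8 KO with Alios. Gonadal fat numbered 4 WT, 8 HET and 5 KO with chow and 8 WT, 11 HET and 9 KO with HFD, and 44 of these mice also gave a liver library. The labels do not say how the mutation was made or in which cells it acts, and sex is not given in the sources used here. Mouse numbers on chow and HFD fall into a low and a high run, and the labels do not say what the runs stand for. Each group holds mice of both.

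Totals were 42692 to 8854246 counts in liver (75 libraries, median 3191160, the next lowest 1027087) and 4236655 to 6699887 in gonadal adipose tissue (45 libraries, median 5981802). The 40 genes took 0.180 to 0.400% of counts in liver and 1.51 to 4.93% in fat, so liver values rest on fewer reads. Pepd, the gene of prolidase, which frees proline from dipeptides left by collagen breakdown, was read as the altered gene because its counts followed the PEP labels: in liver it lay between 0 and 3.16 CPM (read counts scaled to equal library totals) in KO libraries and between 32.3 and 63.3 in WT libraries. In fat the KO level was lower but not near 0, with medians of 14.2 against 87.4 CPM on chow and 24.6 against 103 on HFD. The mouse given as HET with HFD liver replicate 8 and gonadal replicate 3 had Pepd at the KO level in both tissues, 1.22 and 21.8 CPM. Leaving it out kept 137 of the 140 calls of named matrix genes that could be recomputed. Summed CPM of 9 hepatocyte markers was at least 44564 in every chow or HFD liver library, and 8 adipocyte markers summed to 4834 or more in every gonadal library. One gonadal HFD WT library had a hepatocyte sum of 49498 CPM against a group median of 2319, and 29 libraries in all held markers of another tissue. A sum of markers cannot tell fewer cells of a type from less RNA per cell, and neither can any value from whole tissue.

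Fibrillar collagens assemble into the ropes that give tissue its tensile strength, lysyl oxidases crosslink them, and small proteoglycans such as decorin and lumican bind their surface. Basement membranes are sheets of type IV collagen, laminin and nidogen under epithelia and around adipocytes and endothelial cells. In liver the fibrillar collagens come mainly from hepatic stellate cells and portal fibroblasts, while plasma fibronectin (Fn1) is made by hepatocytes; in fat the matrix comes from progenitors and fibroblasts and, for type IV and type VI collagen, also from adipocytes.

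Promoter sequences are given for 4 genes that the values below turn on: Col1a2 and Postn, which were lower in KO than in WT liver on HFD, and the neighbours Col4a1 and Col4a2, which were both lower in KO than in WT fat on chow. Each covers 250 bases before and 50 after a RefSeq start site in GRCm38.p6, 5′ to 3′ on the strand of the gene, at chr6:4505368-4505667 (plus), chr3:54360857-54361156 (plus, 1 of several RefSeq windows of Postn), chr8:11312777-11313076 (minus) and chr8:11312555-11312854 (plus). Capitals mark the CCAAT box (CCAAT), the TATA box (written as TATAAA) and the GC box (written as GGGCGG) or their reverse complements, and no marked motif overlaps another.
Col1a2: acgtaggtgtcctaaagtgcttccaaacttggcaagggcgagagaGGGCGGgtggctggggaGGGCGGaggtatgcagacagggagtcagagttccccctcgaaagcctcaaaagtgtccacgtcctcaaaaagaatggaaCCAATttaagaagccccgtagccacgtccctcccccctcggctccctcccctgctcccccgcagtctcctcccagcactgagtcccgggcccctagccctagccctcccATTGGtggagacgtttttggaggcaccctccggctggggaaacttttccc
Postn: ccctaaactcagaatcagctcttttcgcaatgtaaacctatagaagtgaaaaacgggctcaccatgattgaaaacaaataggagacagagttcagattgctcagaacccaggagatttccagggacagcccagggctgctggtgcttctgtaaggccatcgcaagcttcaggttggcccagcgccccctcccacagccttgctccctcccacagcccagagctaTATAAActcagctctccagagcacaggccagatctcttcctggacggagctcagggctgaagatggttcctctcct
Col4a1: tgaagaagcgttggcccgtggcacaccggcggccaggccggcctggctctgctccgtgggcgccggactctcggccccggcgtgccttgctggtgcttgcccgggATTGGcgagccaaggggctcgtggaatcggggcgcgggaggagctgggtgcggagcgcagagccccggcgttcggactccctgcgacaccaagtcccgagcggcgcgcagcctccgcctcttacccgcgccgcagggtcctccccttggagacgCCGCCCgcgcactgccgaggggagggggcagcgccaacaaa
Col4a2: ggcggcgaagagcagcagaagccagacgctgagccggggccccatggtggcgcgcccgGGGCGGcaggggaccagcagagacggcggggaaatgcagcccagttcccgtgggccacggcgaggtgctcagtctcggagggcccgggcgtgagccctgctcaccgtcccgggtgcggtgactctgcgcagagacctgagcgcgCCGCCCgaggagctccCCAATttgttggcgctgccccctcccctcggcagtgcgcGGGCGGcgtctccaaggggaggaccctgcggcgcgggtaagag
The Col4a1 and Col4a2 windows share 78 bases read on opposite strands, with start sites 21 bases apart, and have GC contents of 74 and 73.7%. In Postn, TATAAA begins 26 bases before the start site. Of the 27 windows found for 23 of the 40 genes, 40.7% held the first of these motifs, 18.5% the second and 66.7% the third on either strand, against 37.4%, 13.6% and 35.7% of 32841 promoter windows of the same length. A match describes letters and not a bound site.

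The 2 tissues carried different matrices. In the liver of WT mice on chow the highest level per length was that of Fn1, 132.6 ± 26.9 CPM per kb of exon (SD, n = 5). It was followed by Col18a1, which encodes the basement membrane collagen that yields endostatin, at 55.3 ± 9.42, and by Dcn, which encodes decorin, at 26.7 ± 6.68. Vcan (versican), Lox and Mfap5 (a microfibril protein) had the lowest liver levels, 0.0172, 0.0247 and 0.0353 CPM per kb. In WT chow fat (n = 4) Sparc, which encodes a collagen-binding glycoprotein, led at 1788 ± 910 CPM per kb, ahead of Col4a1 at 337 ± 141 and Ccdc80 at 316 ± 94.0. The neighbours Col4a1 and Ccdc80 lay within each other's spread.

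Compared within mice that gave both tissues, 37 of the 40 genes were higher and 3 were lower in fat than in liver of WT mice on HFD (8 mice; edgeR's quasi-likelihood test with mouse as a block, adjusted p under 0.05 by Benjamini-Hochberg over 14679 genes). Over all genes tested 79.4% were called in this comparison, so a call by itself says little. The median log2 difference was 4.44 over the 40 genes and 0.22 over all genes. The 3 lower genes were Fn1 (log2 -1.56, 2.95-fold), Col18a1 (-1.27) and Col14a1 (-1.09), which encodes a fibril-associated collagen. The sizes of these differences depend on scaling the 2 tissues together. With fat scaled alone, Fn1 averaged 1004 CPM in the same fat libraries. On 1 scale for both tissues, Fn1 measured 2134 ± 295 CPM in liver and 740 ± 196 in fat, and Col18a1 575 ± 160 and 236 ± 54.1 (SD, n = 8). Sparc went the other way, 113 ± 33.4 against 5659 ± 1282 CPM (log2 5.67), and so did Col3a1, 93.5 ± 48.2 against 1706 ± 568 (log2 4.32). Among the other genes higher in fat were Lox (log2 7.03), Col6a2 (6.39), Col4a1 (5.14), Col1a1 (4.80), Eln (4.45), Col6a3 (4.20), Postn (2.93), Col12a1 (1.98) and Dcn (1.86). Lox, which encodes lysyl oxidase, was at 0.379 ± 0.383 CPM in these livers, so its ratio rests on few liver reads.

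**Figure D1:**
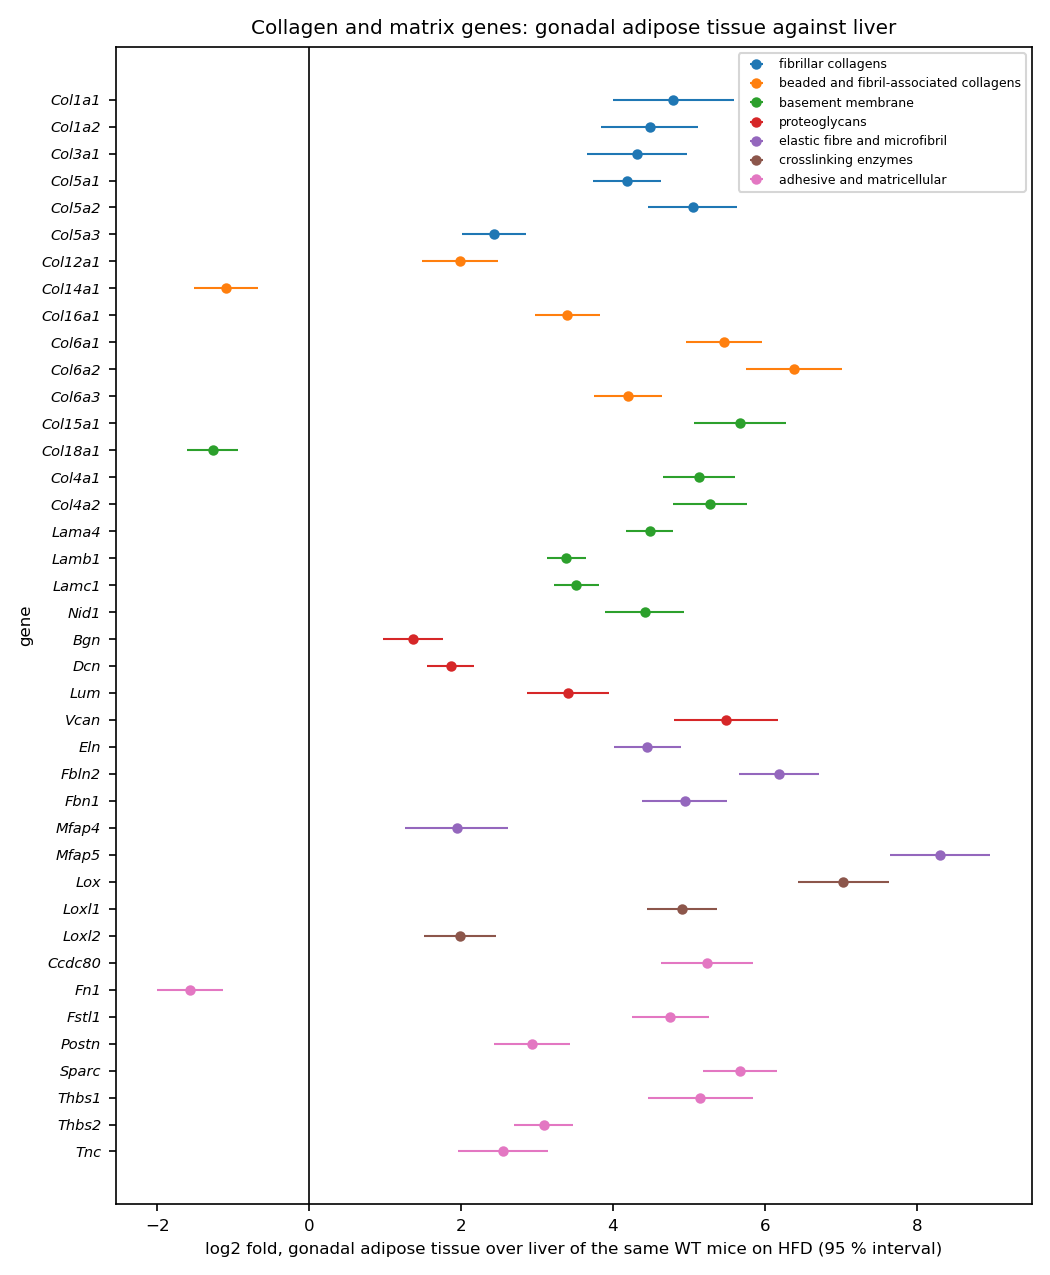
Log2 difference of gonadal adipose tissue over liver in the same 8 WT mice on HFD for each of the 40 genes, with the 95% interval as a bar. Only Fn1, Col18a1 and Col14a1 lie on the liver side of 0.

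On chow, with 4 WT mice, the same direction held for Fn1 (log2 -2.48, 5.59-fold lower in fat), Col18a1 (-1.60) and Col14a1 (-1.33). In this comparison 37 genes were higher and 3 lower in fat, against 73.3% of all genes called. In KO mice on HFD (9 mice) 37 were higher and 2 lower, against 80.7% of all genes called. Col14a1 was the gene without a call, at a log2 difference of 0.21 (adjusted p = 0.325). Its tissue difference also depends on the joint scaling. With each tissue scaled alone, its mean in WT mice on chow was 40.4 CPM in fat and 52.7 in liver.

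In WT liver type I and type III collagen RNA was higher on HFD than on chow. Of the 35 genes with enough reads for the fit, 11 rose and none fell between chow and HFD (edgeR, adjusted p under 0.05), where 1.21% of all 11064 genes rose. Lox, Loxl1, Vcan, Mfap4 and Mfap5 did not pass the filter on low counts in this fit. The median log2 change was 0.68 over the 35 and -0.00 over all genes. The 11 were Col1a1, Col1a2, Col3a1, Col14a1, Nid1, Lamb1, Ccdc80, Sparc, Thbs1, Thbs2 and Bgn.

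Among the fibrillar chains, 3 of 6 rose. Col1a1, a chain of type I collagen, measured 2.40, 4.88, 3.84, 5.08 and 1.01 CPM in the 5 chow WT livers. In the 8 HFD WT livers it ranged from 2.93 to 27.9 with a median of 17.4. The HFD group was uneven: replicates 1, 2 and 3 stayed at 2.93, 3.61 and 4.19 CPM, inside the chow range, while the other 5 lay at 17.4 or above. The log2 change was 2.17 (SE 0.50, adjusted p = 0.0155). Its partner chain Col1a2 was at 8.31, 7.81, 10.0, 11.8 and 6.05 CPM on chow and at 10.3 to 58.0 on HFD (log2 1.68, SE 0.37, adjusted p = 0.0124). Col3a1, the type III chain, was at 19.0, 30.8, 23.3, 31.1 and 19.7 CPM on chow and at 28.6 to 116 with a median of 73.5 on HFD (log2 1.51, SE 0.33, adjusted p = 0.012). For both genes 7 of the 8 HFD livers lay above every chow liver.

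Of the basement membrane genes 2 of 8 rose, Nid1 (nidogen, log2 1.12) and Lamb1 (a laminin chain, log2 0.62). Col14a1 was the riser among the 6 beaded and fibril-associated chains, from 51.2, 65.4, 52.5, 40.6 and 54.0 CPM on chow to between 57.2 and 150 on HFD (log2 0.89, SE 0.21, adjusted p = 0.018). Of the adhesive and matricellular genes 4 of 8 rose: Thbs1 (thrombospondin, an activator of latent TGF-beta, log2 2.05, adjusted p = 0.0311), Ccdc80 (1.21, adjusted p = 0.0227), Thbs2 (1.01) and Sparc (0.73, adjusted p = 0.0237). Thbs1 averaged 0.785 CPM in the chow WT livers, so its change rests on few reads. Bgn (biglycan) rose by 0.53 (adjusted p = 0.029). Postn (periostin, which binds collagen and integrins) had a log2 difference of 1.14 (adjusted p = 0.0519), and Col4a1, Col6a3, Dcn, Col12a1, Eln and Fn1 differed by 0.81, 0.74, 0.49, 0.91, 0.60 and 0.03 without passing the test.

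Beside these genes, the summed CPM of 9 stellate cell markers was 148 to 212 (median 163) in chow WT livers and 197 to 339 (median 242) in HFD WT livers, with Colec11, Rgs5 and Pdgfrb called higher. The 12 macrophage markers summed to 385 to 738 CPM (median 428) and 419 to 911 (median 537), with Trem2 (log2 3.14) and Gpnmb (3.77) called higher. No marker of either list was at 0 in these groups, and their part in the result was not tested. The count of 11 depended on the chow group of 5: leaving out each of its libraries gave between 0 calls (without replicate 1) and 7 calls (without replicate 2). A fit of these 2 groups alone called 2 genes, and 4 were called without the libraries that held other tissue. In fits of 1 run of mouse numbers, added after the data were seen, 0 were called in either, and the 11 differences were positive in both (Col1a1 1.91 in the low run and 2.59 in the high run). Because the 11 genes were picked by their calls in these same livers, the shared sign is no separate result.

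**Figure D2:**
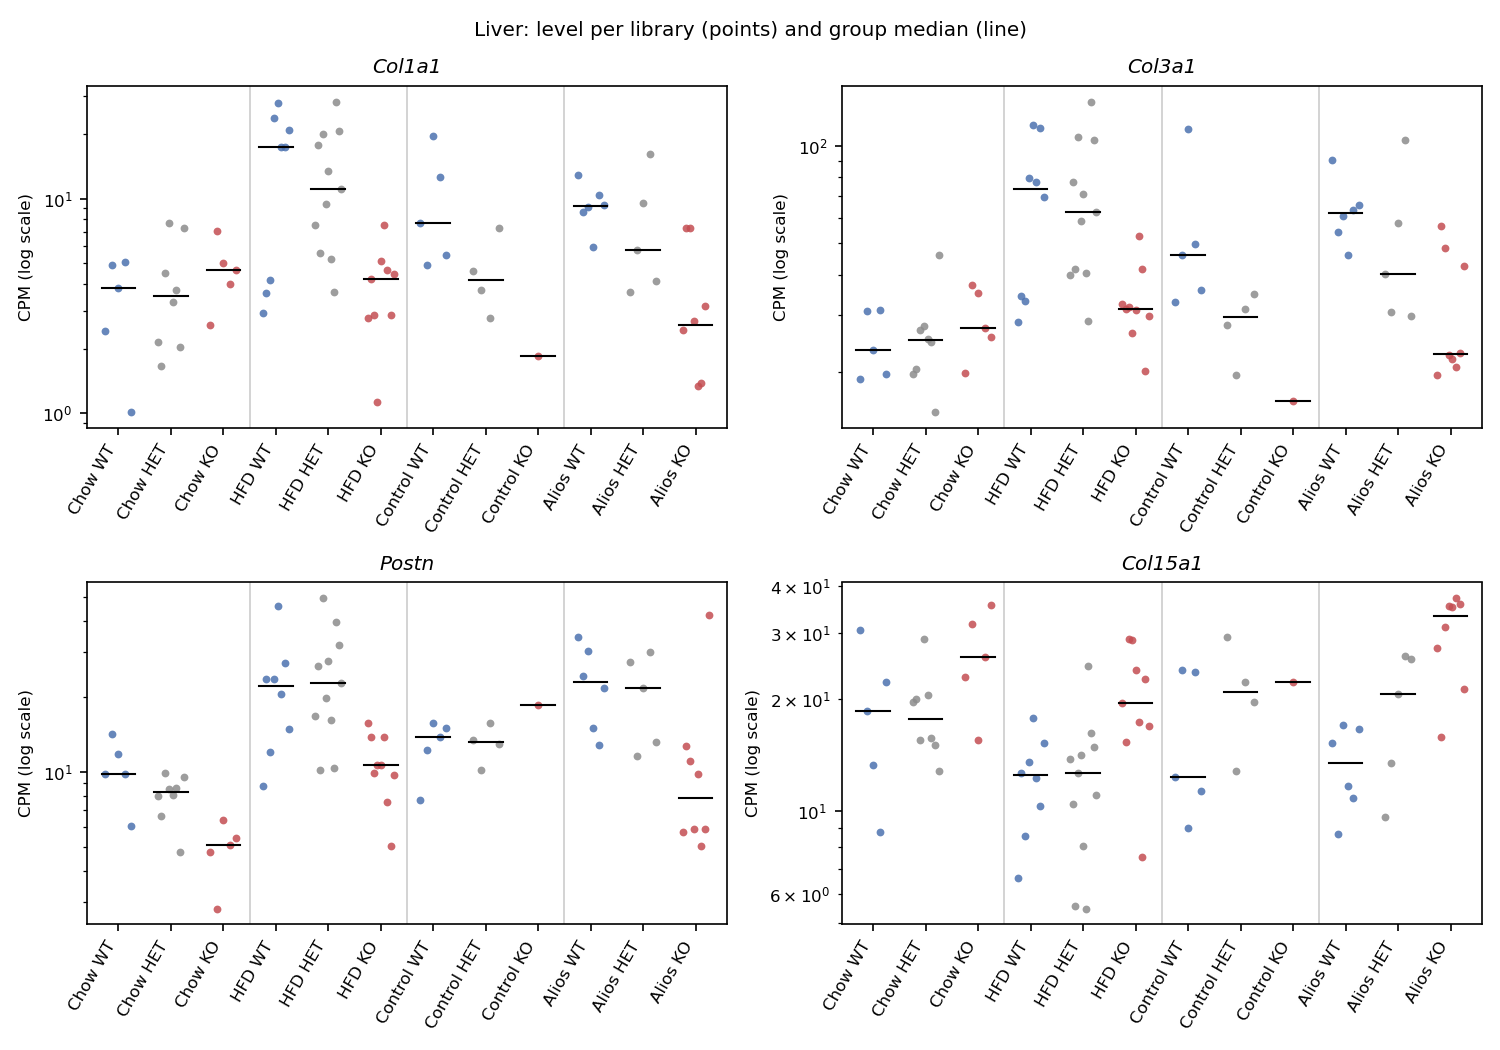
CPM on a log axis of Col1a1, Col3a1, Postn and Col15a1 in every liver library, grouped by diet and genotype, with each point a mouse. On HFD the WT and HET points spread upward for Col1a1, Col3a1 and Postn, and the KO points stay near the chow level for Col1a1 and Col3a1.

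HET livers, in larger groups of 8 and 11, gave more calls between chow and HFD, though the difference from WT was not tested. In them 23 of 35 genes rose and none fell, where 6.97% of all genes rose. The risers included all 6 beaded and fibril-associated chains, 4 of 6 fibrillar chains, 4 of 8 basement membrane genes, 6 of 8 adhesive genes and all 3 proteoglycans tested. Thbs2 had the smallest adjusted p (log2 1.41, adjusted p = 1.15e-05), then Postn (log2 1.62, adjusted p = 3.37e-05). Col1a1, Col3a1, Col6a1, Col12a1 and Col4a1 rose by 1.68, 1.44, 0.93, 1.37 and 0.71. The 3 elastic fibre genes tested and Loxl2 were not called. Stellate cell markers summed to 141 to 276 CPM (median 189) in chow HET livers and 229 to 354 (median 261) in HFD HET livers, with 4 of 9 called higher and 1 lower. Macrophage markers went from a median of 442 to 591 CPM with 3 of 12 called higher, and endothelial markers from 203 to 254 with 3 of 8 called higher. Of 9 hepatocyte markers 3 were called lower. None of these marker lists was used in the fits. Their part in the result was not tested.

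No gene of the 35 passed in KO livers, where 10.7% of all genes were called between chow and HFD. At an unadjusted p under 0.05, 4 genes were higher in edgeR, against 28% of all genes in either direction, and DESeq2 called 1. A fit of only these 2 groups called 3. Postn, Col14a1 and Nid1 had log2 differences of 1.09 (adjusted p = 0.0629), 0.55 (adjusted p = 0.0769) and 0.73 (adjusted p = 0.107). Col3a1 differed by 0.19 with a 95% interval of -0.45 to 0.83, and Col1a1 by -0.15 with an interval of -1.21 to 0.91. The median was 0.09.

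On HFD the KO livers held less type I and type III collagen RNA than the WT livers. None of the 35 genes was called higher and 9 were called lower in KO than in WT, where 0.569% of all genes were called higher and 1.15% lower. The log2 difference was negative for 34 of 35, with a median of -0.45. DESeq2 called 10.

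Col1a1 lay between 1.13 and 7.56 CPM in the 9 KO livers, with a median of 4.20, against 2.93 to 27.9 in WT. All 9 KO livers were below the WT mean and 4 were below every WT liver, while the 3 low WT livers fell inside the KO range. The log2 difference was -1.92 (SE 0.38, 3.79-fold lower, adjusted p = 0.00736). Col1a2 was at 7.86 to 17.4 CPM in KO and 10.3 to 58.0 in WT (log2 -1.38, SE 0.29, adjusted p = 0.0118). Col3a1 was at 20.1 to 52.6 CPM with a median of 31.3 in KO (log2 -1.08, SE 0.26, adjusted p = 0.023). Thus 3 of 6 fibrillar chains were called lower, and Col5a1, Col5a2 and Col5a3, the chains of type V collagen, were not.

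Of the adhesive and matricellular genes 4 of 8 were called lower. Postn was at 5.03 to 15.7 CPM with a median of 10.6 in KO livers and at 8.79 to 45.9 with a median of 22.0 in WT livers (log2 -1.13, SE 0.26, adjusted p = 0.0187), and the groups overlapped. Tnc, which encodes tenascin C, a protein made in wounds and inflamed tissue, differed by -1.73 (SE 0.42, adjusted p = 0.0262), Ccdc80 by -0.91 (adjusted p = 0.0328) and Thbs1 by -1.37 (adjusted p = 0.048). Tnc and Thbs1 rest on few reads. Median counts of Tnc were 5 in KO and 8 in WT livers, and Thbs1 averaged 1.37 CPM in KO livers. Of the beaded and fibril-associated chains, Col6a1 (-0.71, adjusted p = 0.0415) and Col6a2 (-0.98, adjusted p = 0.0448) were called lower. None of the 8 basement membrane genes, the 3 proteoglycans or the 3 elastic fibre genes tested was called.

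Fn1, highest of the 40 per length in liver, had 1303 to 2041 CPM in WT and 1250 to 2033 in KO (log2 -0.02, adjusted p = 0.971). Col4a1, Col6a3, Dcn, Eln and Col12a1 had differences of -0.44, -0.60, -0.27, -0.34 and -0.30 that did not pass. Col15a1, a basement membrane collagen of vessels and muscle, was the gene with the positive difference (0.67, adjusted p = 0.15). The stellate cell markers summed to 203 to 271 CPM (median 240) in KO and 197 to 339 (median 242) in WT, and of the 9 only Pdgfrb was called (log2 -0.59, adjusted p = 0.0415). Adipocyte markers summed to 22.0 to 84.2 CPM (median 42.4) in KO livers and 39.6 to 162 (median 88.3) in WT livers, with Cfd (-2.73) and Cidec (-1.41) called lower among the 4 that passed the filter; their part in the result was not tested. A fit of only these 2 groups called 4 of the 35 genes. Among mice of low or of high numbers alone none was called, and the 9 differences were negative in both (Col1a1 -2.18 and -1.74). The 9 genes were picked by their calls in these same livers, so the shared sign is no separate result.

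Against HET livers on HFD, 11 of 35 genes were called lower in KO, where 1.33% of all genes were called lower. These were Postn (log2 -1.26, adjusted p = 0.00309), Tnc (-1.95), Col1a2 (-1.34), Col1a1 (-1.69, adjusted p = 0.00701), Col3a1 (-1.10), Ccdc80 (-0.91), Lum (-0.97), Thbs1 (-1.40), Col6a3 (-0.71), Col6a1 (-0.69) and Col14a1 (-0.57). The KO livers are common to both comparisons. HET and WT livers on HFD showed no call in edgeR or DESeq2, where 0.00904% of all genes were called. Of the 35 genes 2 had an unadjusted p under 0.05, against 8.35% of all genes.

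On chow, genotype made no called difference in liver. KO against WT gave 0 calls in edgeR and in DESeq2 and 1 gene at an unadjusted p under 0.05, where 3.4% and 20.2% of all genes were so called. HET against WT gave 0 in both tools, and 0 genes at an unadjusted p under 0.05, against 0% and 4.46% of all genes. KO against HET gave 0 in both tools and 3 genes at an unadjusted p under 0.05, against 13.5% and 30.8% of all genes. Col1a1 was at 2.57, 7.08, 5.02, 3.98 and 4.66 CPM in the chow KO livers and Col3a1 at 19.9, 37.3, 35.1, 27.3 and 25.6, both across the WT range. Postn, called lower in KO on HFD, leaned the same way on chow without a call. It was at 4.78, 2.83, 6.39, 5.12 and 5.43 CPM in chow KO livers against 9.84, 14.2, 11.8, 9.82 and 6.05 in WT, with 1 KO value above the lowest WT value. The 12 macrophage markers summed to 506 to 2181 CPM (median 1467) in these KO livers against 385 to 738 in WT, and the hepatocyte markers to 44564 to 120271 against 94654 to 131771.

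Whether the KO difference itself changed with diet was tested as an interaction. For KO against WT, no gene of 35 passed in edgeR, where 0.145% of all genes did. At an unadjusted p under 0.05 the difference was lower on HFD for 12 genes, against 18.1% of all genes in either direction, and DESeq2 called 2. Col1a1 had an interaction of -2.32 (SE 0.75, adjusted p = 0.105), Col1a2 of -1.78 (adjusted p = 0.0905) and Col3a1 of -1.32 (adjusted p = 0.125). For KO against HET, a comparison added after the data were seen, Thbs2 (-1.32, adjusted p = 0.0277), Col6a1 (-1.12, adjusted p = 0.0367) and Col1a2 (-1.65, adjusted p = 0.0472) were called lower, where 1.98% of all genes were. Leaving out each chow KO library in turn gave 0 calls (without replicate 2, 3 or 5) to 4 (without replicate 1).

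The mean z-score over the tested genes, computed within each tissue from log2 CPM, gave 1 value per mouse. It ran from -0.75 to -0.12 (median -0.59) in chow WT livers, from -0.50 to 1.56 (median 0.62) in HFD WT, from -0.52 to 1.70 (median 0.48) in HFD HET and from -0.69 to 0.33 (median -0.13) in HFD KO livers. By role, the fibrillar chains had group medians of 1.19 in HFD WT and -0.25 in HFD KO livers. The HFD groups overlapped on this score.

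**Figure D3:**
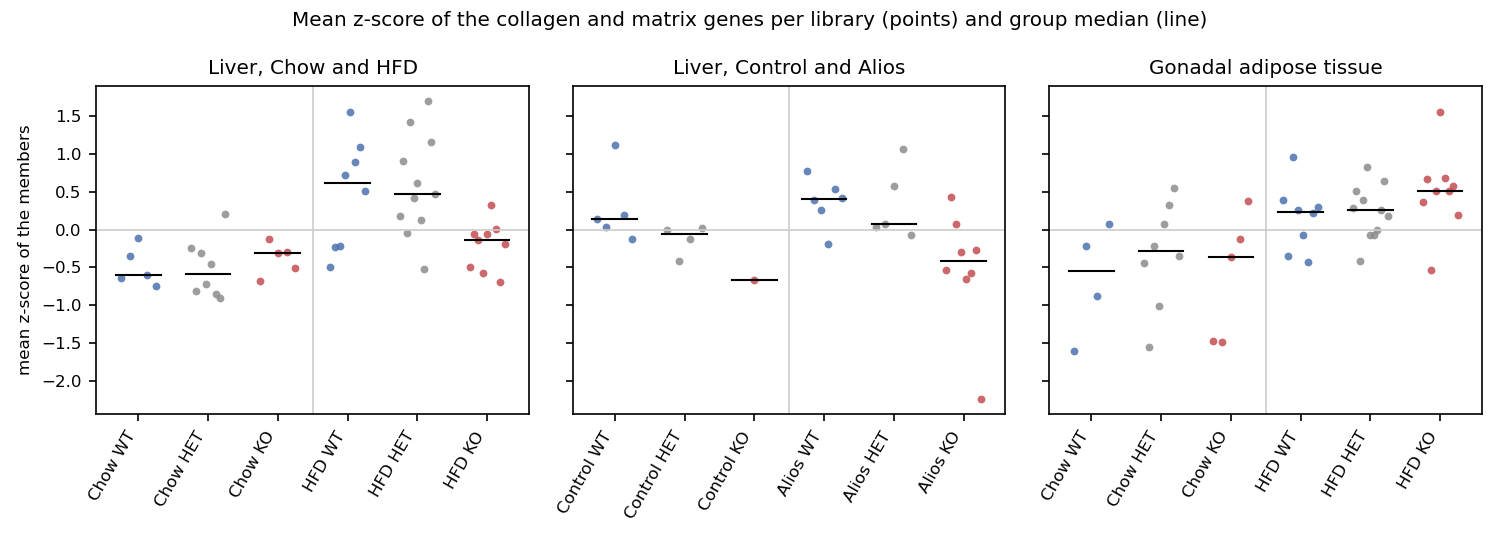
Mean z-score of the tested matrix genes in each mouse, in 3 panels: livers with chow or HFD, livers with Control or Alios, and gonadal fat. HFD WT livers reach 1.56 and HFD KO livers 0.33, and in fat the HFD groups lie over most of the same range.

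The Alios diet, whose composition is not given in the sources used here, was compared in separate liver libraries and in a fit of its own with the Control diet. Of 36 genes tested in liver, Postn was called lower and Col15a1 higher in KO than in WT on Alios, where 0.224% of all 11595 genes were called in either direction. Postn was at 12.8 to 34.6 CPM with a median of 22.9 in the 6 WT livers. In the 8 KO livers it was at 5.05 to 42.5 with a median of 7.86. The value of 42.5 is 2 counts in a library of 42692, and the other 7 KO livers lay at 12.6 or below, under every WT liver. The log2 difference was -1.46 (SE 0.25, 2.76-fold lower, adjusted p = 0.00495).

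Col15a1 went the other way, at 15.8 to 37.2 CPM (median 33.2) in KO and 8.69 to 17.0 (median 13.4) in WT livers on Alios (log2 1.22, SE 0.26, adjusted p = 0.0287). Of the 8 KO livers 7 lay above every WT liver. The library of 42692 counts is among these 7, and its value rests on very few reads. In HET livers on Alios it was at 9.61, 13.4, 20.5, 26.1 and 25.6 CPM. The fibrillar chains were lower without passing the test, Col3a1 with 19.6 to 56.5 CPM in KO and 46.0 to 90.9 in WT (log2 -1.05, adjusted p = 0.0994) and Col1a1 with 0 to 7.28 and 5.97 to 12.9 (log2 -1.37, adjusted p = 0.109). The KO library of 42692 counts held no read of Col1a1, which at that depth does not measure a low level. Col6a3 differed by -1.13 (adjusted p = 0.055), Col4a1 by -0.60, Dcn by -0.38 and Fn1 by 0.16. In all, 32 of 36 differences were negative, with a median of -0.46. DESeq2 and a fit of only these 2 groups each called 4 genes, and 5 were called without the libraries that held other tissue.

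Against HET on Alios, Postn was again called lower (log2 -1.37, adjusted p = 0.0136), where 0.285% of all genes were called. Leaving out each HET library in turn gave 0 calls (without replicate 1 or 4) to 3 (without replicate 5). The other tests on these diets gave 0 calls in edgeR and DESeq2. HET against WT had 1 gene on Alios and 7 on Control at an unadjusted p under 0.05, where 0.00862% of all genes were called in each and 2.77% and 2.85% had such a p. Alios against Control had 4 such genes in WT, where 0% of all genes were called and 8.42% had such a p, and 10 in HET, where the shares were 0.19% and 13.1%. The Control KO group was 1 library and had no test, with Col1a1 at 1.84, Col3a1 at 16.3, Postn at 18.4 and Col15a1 at 22.1 CPM. In WT on Control, replicate 3 held Col3a1 at 113 CPM against 33.0, 46.1, 49.8 and 35.8 in the others, beside 293 CPM of pancreas markers.

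**Figure D4:**
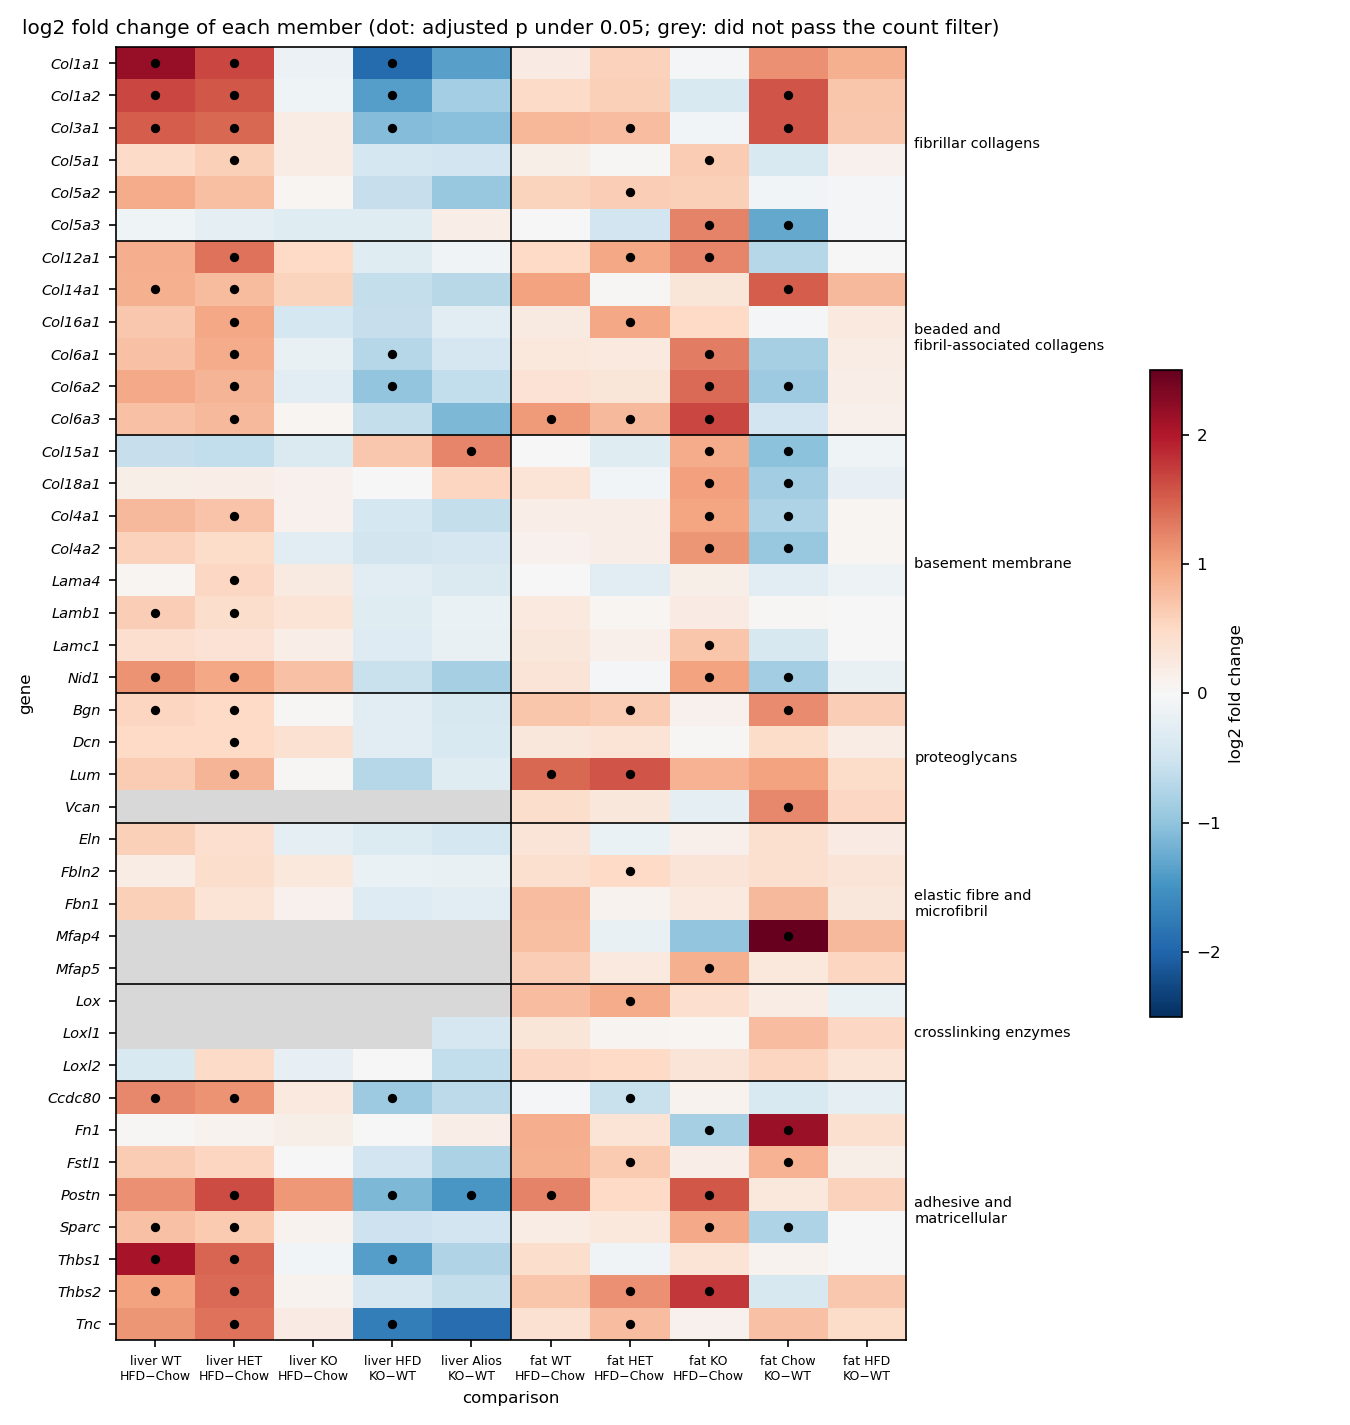
Log2 fold change of the 40 genes, ordered by role, in 10 comparisons, with colour for direction and size, a dot for a call at adjusted p under 0.05 and grey where a gene did not pass the filter. The called decreases in KO liver on HFD lie among the fibrillar, type VI and matricellular genes, and the chow fat column mixes increases and decreases.

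In gonadal fat on chow the KO matrix differed in both directions. Of the 40 genes 8 were called higher and 8 lower in KO than in WT, where 8.85% of all 14536 genes were called higher and 6.14% lower. Of the 8 basement membrane genes 5 were called lower and none higher. The fibrillar chains split, with Col1a2 and Col3a1 higher and Col5a3 lower. The 5 KO libraries were far from alike. A fit of these 2 groups alone, or without the libraries that held other tissue, called 0 of the 40, and the cause was not tested.

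Fn1 had the smallest adjusted p. It was at 436, 733, 438 and 540 CPM in WT fat on chow and at 1686, 756, 754, 3642 and 5073 in KO fat (log2 2.15, SE 0.40, adjusted p = 0.000531). All 5 KO values lay above all 4 WT values, with replicates 4 and 5 highest. Col14a1 also had no overlap, with 38.7, 46.9, 31.6 and 44.1 CPM in WT and 139, 56.5, 68.9, 127 and 187 in KO (log2 1.52, SE 0.34, adjusted p = 0.00249). Mfap4, a microfibril-associated protein, differed by 2.54 (SE 0.60, adjusted p = 0.00388). Col3a1 was at 723, 1616, 1251 and 1616 CPM in WT and at 1512, 1360, 1254, 5791 and 9485 in KO (log2 1.58, SE 0.45, adjusted p = 0.0161): 3 of the 5 KO libraries lay within the WT range. Col1a2 differed by 1.56 (adjusted p = 0.00954), and Bgn, Vcan and Fstl1 were called higher at 1.19, 1.20 and 0.87.

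Among the lower genes, Col5a3, a type V chain that is abundant in fat, was at 637, 958, 980 and 1417 CPM in WT and 226, 371, 869, 289 and 304 in KO (log2 -1.28, SE 0.29, adjusted p = 0.00287). Replicate 3 was the KO library inside the WT range. Col15a1 was at 888, 1074, 917 and 1687 CPM in WT and 317, 460, 1098, 332 and 587 in KO (log2 -1.03, adjusted p = 0.00839), with the same KO library high. Col4a1 was at 1296, 3128, 2024 and 3616 CPM in WT and 989, 1442, 2301, 885 and 1724 in KO (log2 -0.78, adjusted p = 0.0349), and its neighbour Col4a2, whose promoter is printed above beside that of Col4a1, differed by -0.95 (adjusted p = 0.0147). Nid1 (-0.87), Col18a1 (-0.88), Col6a2 (-0.90) and Sparc (-0.78) were also called lower. Col1a1, Dcn, Col12a1, Col6a3, Eln, Postn and Lox had differences of 1.14, 0.45, -0.71, -0.48, 0.39, 0.26 and 0.19 that did not pass.

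Sums of cell markers were set beside these genes. The 8 adipocyte markers, of which Lep was called lower (log2 -1.87), summed to 8080, 29641, 25839, 4834 and 10463 CPM in the chow KO libraries and to 16054, 17868, 29074 and 22688 in WT. Macrophage markers summed to 5187, 4260, 2985, 6643 and 14564 in KO and 1363, 6511, 2603 and 3389 in WT, with 5 of 12 called higher, and progenitor and fibroblast markers to 1452, 1310, 1356, 1965 and 2007 against 974, 1473, 1101 and 1135. Epididymis markers were high in 1 chow library of each genotype, at 18975 CPM in WT replicate 2, 15610 in HET replicate 2 and 13820 in KO replicate 1. Their part in the result was not tested. Without KO replicates 4 and 5, an alternative added after the data were seen, 0 of the 40 genes were called and the differences were 0.08 for Col3a1, 0.05 for Col1a2, 0.99 for Fn1 and -1.03 for Col5a3; leaving out 1 library at a time gave 5 calls (without KO replicate 4) to 22 (without KO replicate 3). KO replicates 4 and 5 are both mice of high numbers, and so are the last 2 WT values above. In fits of 1 run, also added after the data were seen, 24 genes were called among mice of high numbers (2 WT, 2 KO) and 0 among mice of low numbers (2 WT, 3 KO). The share of all genes called in these fits is not given here, so the 24 is not read as a result about the matrix. Fn1 differed by 3.16 and 0.87 in the high and the low run, Col3a1 by 2.41 and 0.24, and Col5a3 by -2.02 and -0.71. The difference between runs was not tested, and with the run as a covariate 16 genes were called.

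**Figure D5:**
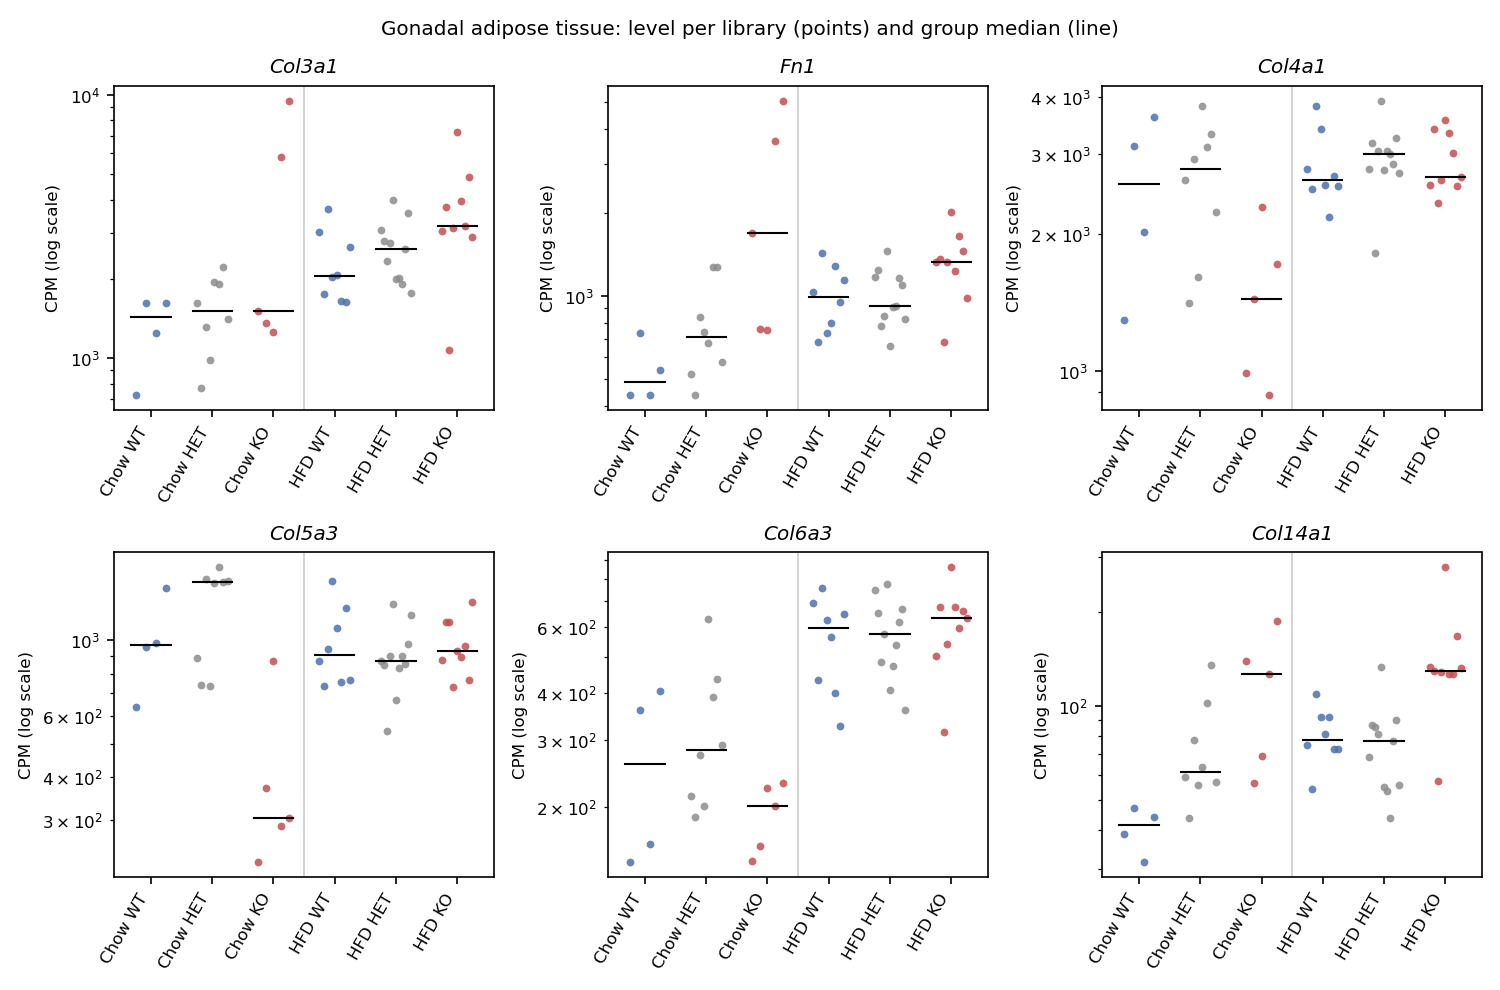
CPM on a log axis of Col3a1, Fn1, Col4a1, Col5a3, Col6a3 and Col14a1 in every gonadal adipose library by diet and genotype, with each point a mouse. In the chow KO group 2 points of Col3a1 and Fn1 lie far above the rest, and 4 of 5 points of Col5a3 lie below all WT points.

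Against HET fat on chow, 8 genes were called higher and 13 lower in KO, where 32.4% of all genes were called in either direction. The lower genes included 7 of the 8 basement membrane genes, and Col5a3 had the smallest adjusted p (log2 -1.59, adjusted p = 2.17e-05), with Col15a1 (-1.23), Nid1 (-1.11), Col18a1 (-1.02), Col4a2 (-0.96) and Lamc1 (-0.55) also lower. Fn1 (1.59) and Col1a2 (1.46) were called higher. Without KO replicates 4 and 5 the count was 2, and Col1a1 (-0.37), Col1a2 (-0.050), Col3a1 (-0.15) and Mfap4 (-0.055) turned negative. Among mice of high numbers 25 were called and among mice of low numbers 0, again without the share of all genes. A fit of the 2 groups alone called 6, and leaving out 1 library at a time gave 14 (without KO replicate 4) to 26 (without KO replicate 2). HET and WT fat on chow gave 0 calls in edgeR and DESeq2, where 0% of all genes were called, and 3 genes had an unadjusted p under 0.05, against 4.29% of all genes.

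Between KO and WT fat on HFD no gene of 40 was called in edgeR or DESeq2, where 0.0344% of all genes were, and 10 had an unadjusted p under 0.05, each higher in KO, against 10.5% of all genes. Col14a1 was at 54.1 to 109 CPM (median 77.9) in WT and 57.5 to 278 (median 129) in KO, a log2 difference of 0.81 with a 95% interval of 0.34 to 1.28 (adjusted p = 0.281). In 8 of 9 KO mice the value exceeded the highest WT value. Col1a1 differed by 0.88 (adjusted p = 0.357) and Col3a1 by 0.67 (adjusted p = 0.451), the latter at 1071 to 7223 CPM in KO and 1630 to 3673 in WT. Col4a1 differed by 0.04 with an interval of -0.32 to 0.41. KO against HET gave 0 calls in edgeR and 1 in DESeq2, where 0.0138% of all genes were called; 8 genes had an unadjusted p under 0.05, against 7.77%. HET against WT gave 0 in both tools and 0 genes at an unadjusted p under 0.05, where the shares of all genes were 0.00688% and 4.88%.

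Between chow and HFD the numbers of called genes in fat were 3 in WT, 13 in HET and 17 in KO mice. In WT, Postn (log2 1.23, SE 0.31, adjusted p = 0.0285), Col6a3 (1.06, SE 0.30, adjusted p = 0.0366) and Lum (lumican, 1.43, SE 0.44, adjusted p = 0.0497) rose from chow to HFD, where 1.6% of all genes rose. Postn was at 101, 163, 104 and 137 CPM on chow and at 164 to 406 on HFD, without overlap, and Col6a3, the type VI chain that is cleaved to endotrophin, was at 143, 361, 159 and 405 on chow and 327 to 758 on HFD, with 6 of 8 HFD libraries above all chow libraries. Fn1 (0.90, adjusted p = 0.0925), Col3a1 (0.83), Lox (0.77), Col1a1 (0.20) and Col4a1 (0.16) did not pass. The 3 calls were lost in a fit of the 2 groups alone and without the libraries that held other tissue, and leaving out 1 chow library gave 0 (without replicate 2 or 4) to 6 calls (without replicate 3).

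In HET fat 12 genes rose and 1 fell, where 34.4% of all genes were called in either direction, so the share of 32.5% lay near the background. The leading genes were Lum (1.57, adjusted p = 0.000366), Thbs2 (1.13), Col16a1 (0.97), Lox (0.93), Col6a3 (0.80), Col12a1 (0.96), Fstl1 (0.66) and Tnc (0.76), and Ccdc80 fell by 0.56. None was called without the libraries that held other tissue.

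In KO fat 16 rose and 1 fell, where 35.5% of all genes were called, so the share of 42.5% lay near the background. The 3 chains of type VI collagen, the beaded filament network around adipocytes, were among them: Col6a3 (log2 1.67, SE 0.28, adjusted p = 1.81e-05), Col6a2 (1.42) and Col6a1 (1.29). Of the basement membrane genes 6 of 8 rose, Col4a2 by 1.10, Col4a1 by 0.98 and Lamc1 by 0.70, and Col5a3 rose by 1.23. Thbs2 rose by 1.77 (adjusted p = 3.56e-05) and Postn by 1.55 (adjusted p = 7.21e-05). Fn1 fell by 0.84 (SE 0.30, adjusted p = 0.0279), while Col3a1 and Col1a1 differed by -0.08 and -0.05. Without chow KO replicates 4 and 5, 28 genes rose and the Fn1 difference was 0.32.

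The test of whether the KO difference in fat changed with diet called Fn1 (HFD minus chow -1.74, SE 0.47, adjusted p = 0.0195) and Col5a3 (1.25, SE 0.36, adjusted p = 0.0291), where 6.33% of all genes were called. Neither was called in a fit of the groups compared alone, without the libraries that held other tissue or without chow KO replicates 4 and 5, and leaving out 1 chow library gave 0 (without KO replicate 4 or 5 or WT replicate 5) to 12 calls (without KO replicate 3). The same test for KO against HET, added after the data were seen, called 10 genes higher and 1 lower, where 26.5% of all genes were called, and 1 gene without those replicates.

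Liver and fat were also set against each other for each effect. The KO difference on HFD, fat minus liver, gave 0 calls in edgeR, where 0.0136% of all genes were called; 19 genes had an unadjusted p under 0.05, each with the more positive difference in fat, against 10.7% of all genes. Col1a1 differed by 2.46 (adjusted p = 0.0534), Col1a2 by 1.82 (adjusted p = 0.0545), Postn by 1.53 (adjusted p = 0.0545) and Col3a1 by 1.54 (adjusted p = 0.136). Under limma-voom with mouse as a random block 4 genes were called, and DESeq2 was not run on this comparison. For the HFD effect in WT mice, fat minus liver, edgeR called 0, where 1.6% of all genes were called, and 6 genes had an unadjusted p under 0.05, against 19.4%. Across mice within a group, the liver and fat levels of Col1a1, Col3a1 and Col4a1 gave 12 relations, none of which passed adjustment (permutation tests, two-sided, smallest adjusted p = 0.548 for Pearson's r and 0.275 for Spearman's rho).

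The rest of the matrix pathway was read from 4 lists: other matrix genes, collagen-processing enzymes, TGF-beta pathway genes and matrix receptors. Between KO and WT livers on HFD, 2 of 29 other matrix genes were called lower, Sparcl1 (log2 -1.55, adjusted p = 0.00801) and Tnxb, a tenascin (-1.03, adjusted p = 0.0135). Of 17 processing genes Adamts2, the procollagen N-proteinase, was called lower (-0.80, adjusted p = 0.0467). None of 18 TGF-beta genes or 19 receptors was called. The shares of all genes called higher and lower between these livers are given above. Whether the lists differ from those shares was not tested.

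Between HFD and chow WT livers, Tgfbi (0.75, adjusted p = 0.0211), a target of TGF-beta, rose among the TGF-beta genes, and Efemp2 (1.10, adjusted p = 0.0345) rose among 29 other matrix genes. No processing gene of 17 and no receptor of 19 was called. In HET livers 6 of 29 other matrix genes rose and 1 fell, with Lamb3 (1.05), Prelp (0.66) and Lama3 (-1.27) leading, 5 of 17 processing genes rose, among them Adamts2 (0.84) and Tgm2, a transglutaminase (0.98), and Tgfbi (0.72) rose among TGF-beta genes. Of the 19 receptors there, Itga8 (0.79) and Itgb5 (0.28), which are integrin chains, rose and Sdc2, a syndecan, fell by 0.37. The share of all genes that rose from chow to HFD is given above for WT and for HET livers. For HET livers the share that fell is not given here. Whether the lists differ from the background was not tested, so these counts are not read as a response of the lists. On Alios no gene of the 4 lists was called between KO and WT livers.

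In fat on chow, KO against WT, 3 other matrix genes were called higher and 5 lower of 39, with Nid2 (-1.37), Emilin1 (1.41) and Efemp2 (0.83) leading. Of 19 processing genes 4 were higher and 1 lower, led by Plod2, a lysyl hydroxylase of collagen (1.74), Pcolce2 (-1.99) and Bmp1, the procollagen C-proteinase (1.02). Of 20 TGF-beta genes Tgfbi (1.06) and Tgfb2 (1.25) were higher and Smad2 (-0.27) lower, and of 23 receptors 4 were higher and 2 lower, led by the integrin chain Itgb3 (1.39), Sdc4 (1.51) and Itgb5 (-0.58). The same 5 chow KO libraries enter these values. For this comparison the shares of all genes called higher and lower are given above, where chow fat is described. Whether the lists differ from those shares was not tested, so these counts are not read as a response of the lists. From chow to HFD in KO fat 12 of 39 other matrix genes rose and 4 fell, and 10 of 23 receptors rose and 3 fell, with Itga11, a collagen-binding integrin chain, at 1.53, where 35.5% of all genes were called. In WT fat Itga11 (0.86) rose and Col17a1 (-1.73) fell, and no other gene of the 4 lists was called. Between KO and WT fat on HFD none was called.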

How the data were processed

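Polyadenylated RNA with an integrity number above 7 was made into stranded libraries and read as single ends of 50 bases, per the labels' protocols. Per the submitters' processing notes, STAR 2.5.1b and featureCounts 1.5 were used with GRCm38.p5; the strand setting is not given in the sources used here, so overlapping antisense genes could share reads. The values the authors deposited are raw read counts per gene. A column was found for 120 of 121 labelled samples, and 1 unlabelled column was left out. Symbols and exon lengths came from a GRCm38 annotation (GENCODE M21), and all 40 genes matched.

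Counts were fitted in R 4.3.3 with edgeR 4.0.16: quasi-likelihood test, TMM scaling, expression filter with a minimum count of 10 and a minimum total of 15, two-sided, Benjamini-Hochberg adjustment over all genes, called at adjusted p under 0.05. The fits were liver on chow and HFD (46 libraries, 11064 genes), liver on Control and Alios (29, 11595), gonadal fat (45, 14536) and both tissues with mouse as a block (88 libraries of 44 mice, 14679 genes). CPM values use the TMM-scaled library size of their own fit, and log2 CPM used a prior count of 2. The script was tested on simulated data. DESeq2 1.42.0 and limma 3.58.1 served as alternatives. The named genes were up to 8 called genes of smallest adjusted p per comparison plus 10 fixed genes, and up to 3 per pathway list. The genes, lists and roles were chosen with earlier results of these data known. In each group no pair of libraries agreed within sampling noise (392 pairs, ratio of observed to sampling spread at least 3.36). Labels name mice in both tissues, which pairs the tissues. Replicate numbers were not taken to pair the genotypes or diets, and the labels give no such pairing. Each library of a tissue is a different mouse, so each p-value rests on variation between mice. One result of the TGF-beta list is not reported here.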

Additional observations from a re-analysis of the deposited data

Results flagged for a closer look

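Over 195 groups of 4 to 10 libraries, 25 values stood apart from the rest of their group by Dixon's test at the 95% level, where about 1 in 20 groups, or 9.75, would by chance. The groups share libraries, and a few libraries gave several of the 25 values, so these are not independent.

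In liver, Control WT replicate 3, which also held 293 CPM of pancreas markers, was highest for the mean z-score (1.12, next 0.19), Col1a2 (38.2 CPM, next 20.7), Col3a1 (113), Col6a3 (33.1), Col14a1 (122), Thbs2 (7.51) and Lum (25.5). Chow HET replicate 8, which held 1064 CPM of skeletal muscle markers, was highest for Col1a2 (15.6, next 10.6), Col3a1 (46.0) and Col14a1 (97.0). Alios KO replicate 8, the library of 42692 counts, was lowest for the mean z-score (-2.24, next -0.65) and highest for Postn (42.5) and Col14a1 (85.1). Single values were Col5a3 at 209 (highest) and Fn1 at 847 (lowest) in Chow HET replicate 4, Col4a1 at 52.8 in Chow KO replicate 2, Thbs2 at 4.03 in Chow WT replicate 5, Lum at 11.1 in Control HET replicate 3, and Fn1 at 1842 in Alios KO replicate 6 and 2041 in HFD WT replicate 1. In fat, HFD KO replicate 5 was highest for Col14a1 (278, next 167), Postn (972, next 488) and Thbs2 (297, next 141). Col5a3 stood at 869 in Chow KO replicate 3 (next 371), and Thbs2 at 25.5 was lowest in Chow WT replicate 2.

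An effect that differed between diets was called for 16 genes and comparisons. For KO against WT in fat, HFD minus chow, these were Fn1 (-1.74) and Col5a3 (1.25), where 6.33% of all genes were called. For KO against HET in liver they were Thbs2 (-1.32), Col6a1 (-1.12) and Col1a2 (-1.65), where 1.98% of all genes were called lower. For KO against HET in fat they were Col5a3 (1.71), Col15a1 (1.24), Nid1 (1.04), Col18a1 (1.09), Col6a2 (1.11), Col4a2 (0.95), Lamc1 (0.57), Col6a1 (1.04), Postn (1.06), Col4a1 (0.82) and Fn1 (-1.18). These are 27.5% of the 40, near the 26.5% of all genes called. The differences in fat all use the same 5 chow KO libraries.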

How the results depend on the processing

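Of 2012 recomputed values of named genes, 1565 kept direction and call, 441 kept direction and lost the call, and 6 reversed. In chow fat, KO against HET, Col1a1 was -0.082 among mice of low numbers. The others were without gonadal chow KO replicates 4 and 5: KO against HET Col1a1 -0.37, Col1a2 -0.050, Col3a1 -0.15 and Mfap4 -0.055, and Fn1 0.32 between HFD and chow in KO. Counts of called genes, from the main to the other value, moved as follows, and the cause was not tested. Without those replicates, chosen after seeing the data, the fat counts went from 21 to 2 (chow KO against HET), 16 to 0 (chow KO against WT), 11 to 1 (KO against HET, HFD minus chow), 2 to 0 (KO against WT, HFD minus chow) and 17 to 28 (KO, HFD against chow). With only the groups compared in the fit, the same first 2 went to 6 and 0, the KO effect in fat to 0, WT fat on HFD from 3 to 0, Alios KO against WT from 2 to 4, HFD KO against WT in liver from 9 to 4, and HFD against chow in liver from 0 to 3 in KO and from 11 to 2 in WT. Without the libraries that held other tissue, fat gave 0 (chow KO against WT), 0 (HET on HFD, from 13), 1 (KO against HET, HFD minus chow), 0 (KO effect) and 0 (WT on HFD), and liver gave 5 (Alios KO against HET, from 1), 5 (Alios KO against WT), 0 (KO against HET, HFD minus chow, from 3) and 4 (WT on HFD).

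Within 1 run of mouse numbers, also added after seeing the data, liver counts went to 0 in both runs (HFD KO against WT, from 9, and WT on HFD, from 11). Fat counts on chow went to 0 among low numbers and to 24 and 25 among high numbers (KO against WT and against HET). These fits hold fewer mice, and the share of all genes called in them is not given here.

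In no comparison did every same-numbered pair correlate above 0.1. That check cannot exclude a pairing, because liver and fat of the same mouse passed 0.1 in only 8 of 44 pairs (median r 0.018). Replicate numbers were not used as pairs in the main fits. With them as a replicate block, the counts were 0 for the KO effect in fat, WT fat on HFD and both Alios KO comparisons, 15 for HET liver on HFD (from 23), 5 for HFD KO against HET (from 11), 1 for KO against HET, HFD minus chow, and 3 for WT liver on HFD. DESeq2 gave 1 for HFD KO against HET in fat (from 0), 5 for WT fat on HFD, 4 for Alios KO against WT, 2 for the KO effect in liver and 1 for KO liver on HFD. All 12 liver groups together gave 2 for Alios KO against HET, 5 for KO against HET, HFD minus chow, and 2 for KO liver on HFD, and no filter on low counts gave 1 for that KO against HET difference. Between tissues, the KO effect gave 4 with limma-voom, 6 with no replicate block and 4 with RLE size factors, and the HFD effect 1 with no replicate block (each from 0). Leaving out 1 replicate gave 14 to 26 (fat chow KO against HET), 5 to 22 (chow KO against WT), 8 to 16 and 0 to 12 (the KO differences between diets against HET and WT), 16 to 20 (KO on HFD) and 0 to 6 (WT on HFD); in liver 0 to 3 (Alios KO against HET), 0 to 1 (chow KO against HET), 0 to 4 and 0 to 1 (the KO differences between diets against HET and WT) and 0 to 7 (WT on HFD); and 39 to 40 between tissues in chow WT. Depth limits the low liver genes most: a chow WT liver held 2 to 15 counts of Col1a1.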
